A study of Mus musculus with 6 samples.

Results

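Nuclear receptors are transcription factors that bind DNA and, in many cases, a small fat-soluble ligand such as a steroid, retinoic acid, thyroid hormone or vitamin D. This account covers 41 mouse genes of the superfamily, chosen by symbol with no filter on level. Of these, 39 had at least 1 probe set on the array, 106 probe sets of 45037 in all, and none of the 106 was shared with another gene. Nr1h2 and Nr2e3 had no probe set annotated to them here. The probe sets that passed a level filter at the 40th percentile of all signals numbered 63, of 27 genes, but all 106 were tested.

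The cells were immortalized mouse embryonic fibroblasts, connective tissue cells grown from embryos, and all of them lacked PCAF (PCAF-/-; gene Kat2b). The groups were 3 arrays of PCAF-/-;GCN5-/- cells and 3 arrays of PCAF-/-;GCN5+/- cells, untreated and selected in puromycin. GCN5 (gene Kat2a) and PCAF are related histone acetyltransferases, and the study asked which genes they regulate. In each genotype, RNAs A1 and A2 were duplicates of line A and RNA B came from line B, which was immortalized separately. Per the design text, the cells carried a conditional GCN5 allele and received a retrovirus with Cre recombinase or the vector alone, so virus and genotype changed together; no array label names the virus. Only 2 independent lines stand behind every p-value, and the residual spread comes largely from duplicate RNAs of line A, which may be technical.

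Steroid receptors act from the cytoplasm with chaperones such as HSP90, while retinoid, thyroid hormone and vitamin D receptors sit on DNA as partners of a retinoid X receptor (RXR). Without ligand many of them hold corepressors, and ligand exchanges these for coactivators, among them acetyltransferases. Orphan receptors have no established natural ligand or need none, and several are regulated mainly by their amount. In fibroblasts the glucocorticoid and retinoic acid receptors are well known, whereas receptors such as Hnf4a, Nr5a1 and Nr0b2 are known from liver, gonad or adrenal.

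Expression was read against genes of other lineages (liver, pituitary, retina and others). The 42 probe sets of 24 such genes had a median log2 signal of 5.32 and a 95th percentile of 7.98, taken here as the top of a silent-gene band. A gene was above the band where the mean of either line passed it at any probe set. By this reading 20 of 39 receptor genes (37 of 106 probe sets, 34.9%) were above the band, against 56.5% of all named genes and 44.3% of all probe sets. The band is a description and no detection call: Cela1 and Pomc from the silent list averaged 10.74 and 8.33.

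**Figure D1:**
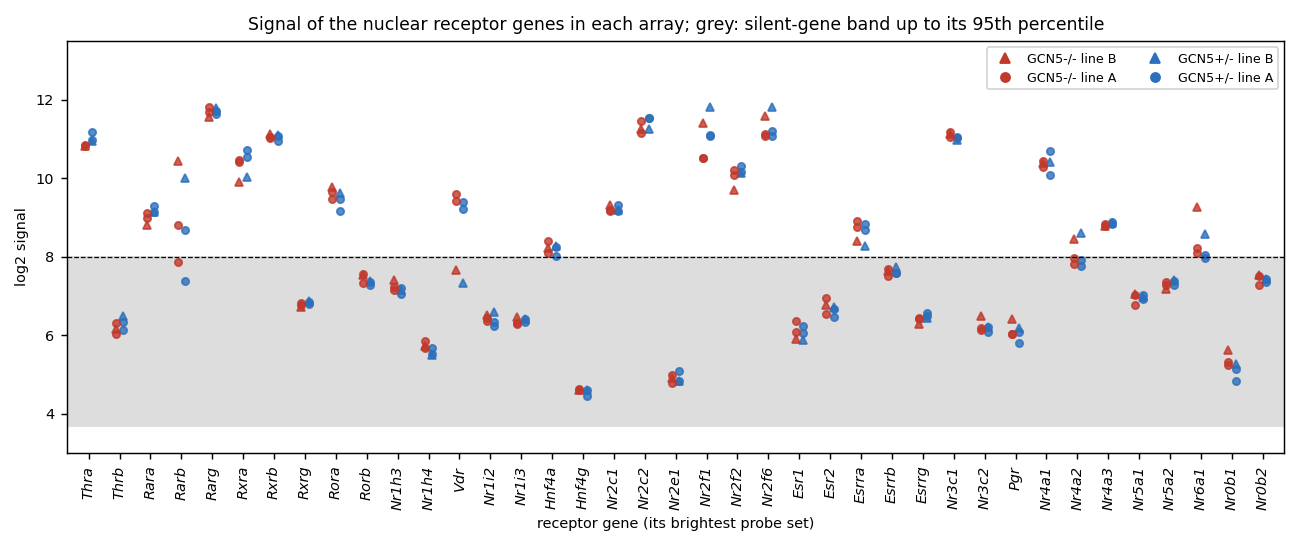
Log2 signal of the brightest probe set of each of the 39 receptor genes in every array (GCN5-/- in red left of GCN5+/- in blue, triangles for line B and circles for line A), with the silent-gene band in grey up to 7.98. Vdr and Rarb show line B apart from line A, and most of the other genes show 6 arrays close together.

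The comparison of lines called more receptor probe sets than did the comparison of genotypes. Between line B and line A, 11 receptor probe sets of 5 genes (Rarb, Nr4a2, Nr6a1, Nr2f1, Nr2f6) were higher and 7 of 5 genes (Vdr, Rxra, Nr2f2, Esrra, Esr1) were lower at a limma adjusted p under 0.05 over all 45037 probe sets. These 18 are 17.0% of the 106, against 14.1% of all probe sets (7.24% higher and 6.89% lower in line B). Between GCN5-/- and GCN5+/- cells 2 receptor probe sets were called, of Nr2f1 and Thra, both lower, and none higher; this is 1.89%, against 4.47% of all probe sets (2.24% higher and 2.23% lower). Of the 37 above the band these 2 are 5.41%, against 8.23% of all probe sets above it. Before adjustment 11 of 106 had p under 0.05, 5 higher and 6 lower. The share of all probe sets at an unadjusted p under 0.05 was not counted. Unadjusted counts, here and below, thus have no array-wide reference. No receptor had a called genotype by line product term, against 0.06% of all probe sets, and 2 of 106 had an unadjusted p under 0.05.

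**Figure D2:**
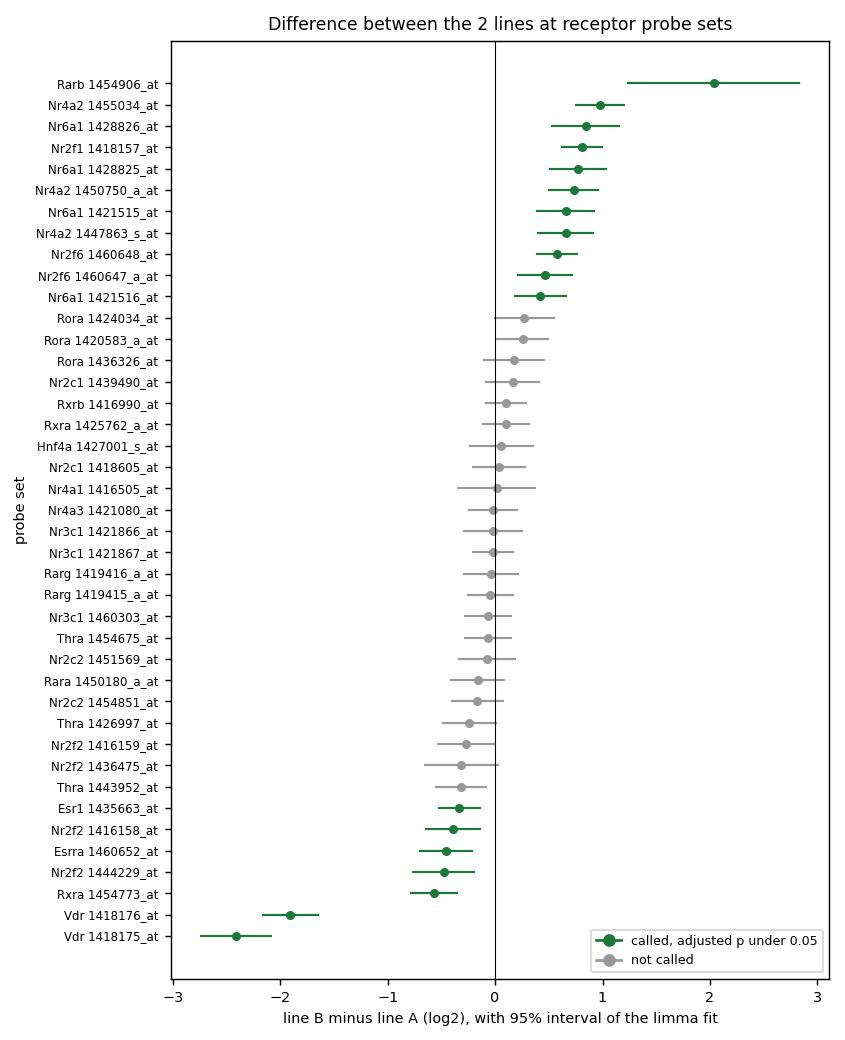
Difference of line B minus line A on the log2 scale (x axis) for each receptor probe set above the band or called, with its 95% interval from the limma fit, green where the adjusted p is under 0.05. Vdr lies at -2.41 and -1.91 and Rarb at 2.04, and 18 probe sets are called.

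Among the ligand receptors, Vdr, the receptor for the active form of vitamin D, had the largest line difference. Its promoter is shown because the gene has the smallest line p of the superfamily; the window runs from 250 bases before to 50 after the RefSeq start (GRCm38.p6, chr15:97908247-97908546, minus strand), and capitals mark the GC box GGGCGG, searched on both strands.
Vdr: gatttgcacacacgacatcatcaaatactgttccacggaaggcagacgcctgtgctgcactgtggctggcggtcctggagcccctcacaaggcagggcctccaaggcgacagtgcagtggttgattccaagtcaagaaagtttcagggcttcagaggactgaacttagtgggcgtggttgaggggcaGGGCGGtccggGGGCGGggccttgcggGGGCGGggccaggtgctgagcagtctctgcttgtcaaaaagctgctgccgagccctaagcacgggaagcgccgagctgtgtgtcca
It holds 3 GC boxes within 63 bases of the start; 35.7% of all 32851 promoter windows of this length hold at least 1. At probe set 1418175_at the log2 signal was 7.32 in the GCN5-/- and 6.86 in the GCN5+/- array of line B, against 9.81 and 9.39 in GCN5-/- and 9.50 and 9.32 in GCN5+/- arrays of line A. Both line B arrays lay inside the silent-gene band and all 4 line A arrays above it. Line B minus line A was -2.41 ± 0.14 (SE; limma adjusted p = 1.4e-05); no fold is given, since line B lay inside the band. Probe set 1418176_at repeated this, with 7.67 and 7.33 in the GCN5-/- and GCN5+/- arrays of line B, and with 9.43 and 9.60 in GCN5-/- and 9.22 and 9.38 in GCN5+/- arrays of line A (-1.91 ± 0.11, SE; limma adjusted p = 1.2e-05). The GCN5-/- array was higher in all 3 matched pairs at both probe sets, by 0.28 ± 0.14 and 0.26 ± 0.11 on the log2 scale (SE), and neither was called (limma adjusted p = 0.342 and 0.244). In bulk RNA, fewer cells expressing a gene and less RNA per cell cannot be told apart.

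Rarb, a retinoic acid receptor whose own transcription is a textbook target of retinoic acid, ran the other way. Its promoter (GRCm38.p6, chr14:16575427-16575726, minus strand) is shown because it was the only receptor window with the direct repeat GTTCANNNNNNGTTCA, in capitals, the type to which retinoic acid receptors bind with RXR.
Rarb: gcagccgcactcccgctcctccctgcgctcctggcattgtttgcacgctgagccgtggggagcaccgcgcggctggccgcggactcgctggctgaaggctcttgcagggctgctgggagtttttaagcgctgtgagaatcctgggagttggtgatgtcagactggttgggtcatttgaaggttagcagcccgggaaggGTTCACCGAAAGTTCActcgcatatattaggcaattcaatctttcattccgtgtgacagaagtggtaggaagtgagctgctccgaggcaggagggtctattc
The repeat lies 52 to 37 bases before the start, and 25 of 32851 windows (0.0761%) hold it on either strand. Only these letters were searched, with no variants of the repeat, so other receptor windows may hold related repeats. A match is a description of these letters and no evidence of binding in these cells. The log2 signal at 1454906_at was 10.44 in the GCN5-/- and 10.00 in the GCN5+/- array of line B, against 7.85 and 8.81 in GCN5-/- and 7.37 and 8.69 in GCN5+/- arrays of line A. Both line B arrays lay above every line A array, by 2.04 ± 0.35 (SE; limma adjusted p = 0.00527), a 4.10-fold difference. The A1 arrays of both genotypes lay inside the silent-gene band, so this fold rests partly on signals there. The duplicate RNAs of line A were themselves far apart, A2 above A1 by 0.95 in GCN5-/- and by 1.32 in GCN5+/- cells. The genotype difference was 0.35 ± 0.33 (SE) and was not called; its 95% interval reached 1.10, the only one of the 106 receptor intervals to pass a 2-fold change.

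The other retinoic acid receptors and RXRs had smaller differences, with 1 line call. Rarg at 1419415_a_at had 11.81, 11.68 and 11.55 in GCN5-/- arrays A1, A2 and B, against 11.64, 11.70 and 11.78 in GCN5+/- arrays. Rara at 1450180_a_at had 9.12, 8.99 and 8.81 in GCN5-/- arrays, against 9.14, 9.29 and 9.13 in GCN5+/- arrays. For Rara every GCN5-/- array lay below every GCN5+/- array, but the difference of -0.21 ± 0.10 (SE) was not called (limma adjusted p = 0.346), and for Rarg the genotypes overlapped. Rxrb, an obligate partner of many receptors, had 11.01, 11.04 and 11.13 in GCN5-/- arrays, against 10.93, 11.07 and 11.10 in GCN5+/- arrays, with a genotype difference of 0.03 ± 0.08 (SE). Rxra at 1454773_at had 9.90 in the GCN5-/- and 10.02 in the GCN5+/- array of line B, against 10.45 and 10.41 in GCN5-/- and 10.54 and 10.71 in GCN5+/- arrays of line A. Line B was thus lower at this probe set, by -0.57 ± 0.09 (SE; limma adjusted p = 0.00434), a call that was lost without the GCN5+/- B array (adjusted p = 0.0535). Another Rxra probe set above the band, 1425762_a_at, had a line difference of 0.10 ± 0.10 (SE) and was not called, so the probe sets of Rxra disagree. Rxrg was not above the band.

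Thra, the thyroid hormone receptor found above the band, was lower in GCN5-/- cells at all 3 of its probe sets and was called at 1. At 1443952_at the log2 signal was 9.64, 9.53 and 9.31 in GCN5-/- arrays A1, A2 and B, against 9.96, 10.14 and 9.70 in GCN5+/- arrays. Every GCN5-/- array lay below every GCN5+/- array. The difference was -0.44 ± 0.10 (SE; limma adjusted p = 0.0411), so the signal was lower by 26.1%. Leaving out any of the 6 arrays ended this call, with adjusted p between 0.0765 and 0.194. At 1426997_at the values were 9.05, 8.81 and 8.73 in GCN5-/- and 9.34, 9.33 and 9.05 in GCN5+/- arrays, and at 1454675_at 10.81, 10.85 and 10.81 in GCN5-/- and 10.96, 11.19 and 10.95 in GCN5+/- arrays. The genotypes did not overlap at these either, and the differences of -0.38 ± 0.10 and -0.21 ± 0.09 (SE) were not called (limma adjusted p = 0.0833 and 0.260). Genotypes that do not overlap were found at 9 of the 106 receptor probe sets, and at 6290 of all 45037. Thrb was not above the band, with a mean of 6.24.

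Nr3c1, the glucocorticoid receptor, was the only steroid hormone receptor of the 3 in this class (with Nr3c2 and Pgr) above the band. At 1421867_at it had 11.04, 11.17 and 11.12 in GCN5-/- arrays A1, A2 and B, against 11.06, 11.02 and 10.98 in GCN5+/- arrays. The arrays overlapped in both comparisons, with a genotype difference of 0.09 ± 0.08 and a line difference of -0.02 ± 0.08 (SE), neither called by limma (adjusted p = 0.668 and 0.920). Its probe sets 1460303_at and 1421866_at were also above the band, and none of its 6 probe sets was called. The receptors for mineralocorticoids (Nr3c2), progesterone (Pgr) and estrogens (Esr1, Esr2) had no probe set above the band. The Esr1 probe set 1435663_at nevertheless passed the line test (-0.33 ± 0.08, SE; limma adjusted p = 0.0300), with 4.09 and 4.25 in the GCN5-/- and GCN5+/- arrays of line B, against 4.40 and 4.50 in GCN5-/- and 4.59 and 4.50 in GCN5+/- arrays of line A. All 6 of those signals lay below the median of the silent genes, and the call was lost without either line B array (adjusted p = 0.217 without GCN5-/- B and 0.163 without GCN5+/- B) and without GCN5-/- A2 or GCN5+/- A1 (0.0798 and 0.0806).

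**Figure D3:**
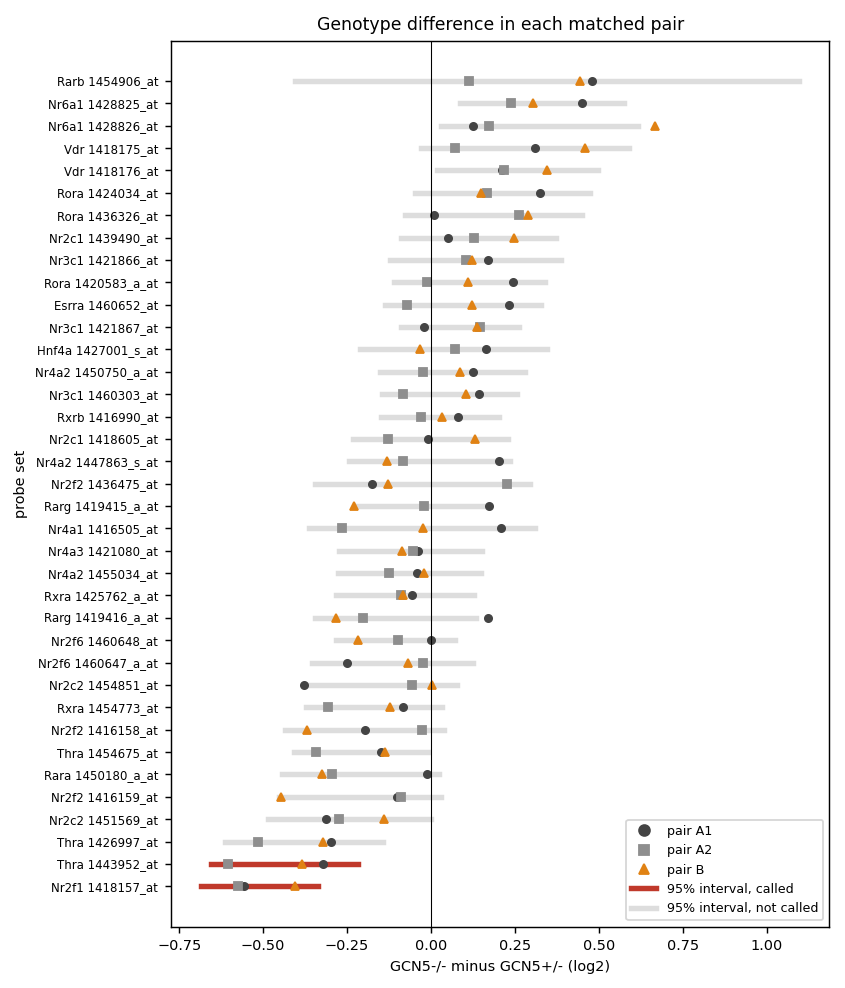
Log2 difference of GCN5-/- minus GCN5+/- in the matched pairs A1, A2 and B (markers) for each receptor probe set above the band, with the 95% interval of the limma fit in red where called and grey otherwise. Nr2f1 and Thra 1443952_at are called, and the Rarb interval is the widest, reaching 1.10.

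The COUP transcription factors are orphan receptors that often repress and that shape mesenchyme, vessels and neurons in the embryo. Nr2f1 (COUP-TFI) was the receptor called in both comparisons, and its promoter is shown for that reason (GRCm38.p6, chr13:78198824-78199123, minus strand; 1 of 2 RefSeq starts). None of its letters is in capitals, since it was printed for its composition: 68.0% G and C, with 23 CpG sites. The window of the other Nr2f1 start has 43.0% G and C, with 4 CpG sites. Over all windows the median is 52.7% G and C.
Nr2f1: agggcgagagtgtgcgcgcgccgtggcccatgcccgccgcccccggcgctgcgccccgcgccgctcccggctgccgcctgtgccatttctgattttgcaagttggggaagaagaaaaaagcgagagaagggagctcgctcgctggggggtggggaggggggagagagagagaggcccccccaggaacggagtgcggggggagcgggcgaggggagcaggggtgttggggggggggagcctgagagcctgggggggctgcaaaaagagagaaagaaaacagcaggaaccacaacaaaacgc
The log2 signal of Nr2f1 at 1418157_at was 10.52, 10.52 and 11.41 in GCN5-/- arrays A1, A2 and B, against 11.08, 11.10 and 11.81 in GCN5+/- arrays. The GCN5-/- array was lower in each matched pair, by -0.56, -0.57 and -0.40, while the genotypes as groups overlapped because line B was higher in both. The genotype difference was -0.51 ± 0.08 (SE; limma adjusted p = 0.00884), so the signal was lower by 29.9%, and line B minus line A was 0.81 ± 0.08 (adjusted p = 0.000292). Without the GCN5-/- A2 array the genotype call was lost (adjusted p = 0.0597).

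Of its relatives, Nr2f6 was higher in line B, as Nr2f1 was, and Nr2f2 was lower. Nr2f6 at 1460648_at had 11.59 in the GCN5-/- and 11.81 in the GCN5+/- array of line B, against 11.09 and 11.11 in GCN5-/- and 11.09 and 11.21 in GCN5+/- arrays of line A. Line B was higher by 0.57 ± 0.08 (SE; limma adjusted p = 0.00213), and at 1460647_a_at by 0.46 ± 0.11 (adjusted p = 0.0249, and between 0.0507 and 0.174 without GCN5-/- A1, GCN5+/- A1, GCN5-/- B or GCN5+/- B). Nr2f2 (COUP-TFII) was lower in line B at 1416158_at, with 9.25 and 9.63 in the GCN5-/- and GCN5+/- arrays of line B, against 9.68 and 9.88 in GCN5-/- and 9.88 and 9.90 in GCN5+/- arrays of line A. That difference was -0.39 ± 0.11 (SE; limma adjusted p = 0.0458), and leaving out any of the 6 arrays ended the call (adjusted p = 0.0709 to 0.376). The Nr2f2 probe set 1444229_at, which lies inside the band, was lower in line B by -0.48 ± 0.13 (SE; adjusted p = 0.0351); it kept the call only when GCN5+/- B was left out, among the 6 single-array omissions, and otherwise had 0.0506 to 0.435. Without GCN5-/- B its line difference was -0.26. Nr2f2 at 1416159_at had 10.20, 10.07 and 9.69 in GCN5-/- arrays, against 10.30, 10.16 and 10.13 in GCN5+/- arrays, and was not called in either comparison. All 9 probe sets of the 3 COUP genes had a negative genotype difference, with a median of -0.15, against 0.00 over all probe sets. Of the 9, 6 are of Nr2f2 and 2 of Nr2f6, so they are not separate readings of the class. Nr2f2 had -0.01 at 1431237_at and -0.03 at 1436475_at, and 1 of the 9 was called.

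Nr6a1 (germ cell nuclear factor), an orphan known from germ cells and the early embryo, was higher in line B at 4 of 5 probe sets. Its promoter at the upstream RefSeq start (GRCm38.p6, chr2:38926412-38926711, minus strand; 1 of 2 starts) is shown because it holds the letters TGACGTCA, the cyclic AMP response element, in capitals, 35 to 42 bases after the start.
Nr6a1: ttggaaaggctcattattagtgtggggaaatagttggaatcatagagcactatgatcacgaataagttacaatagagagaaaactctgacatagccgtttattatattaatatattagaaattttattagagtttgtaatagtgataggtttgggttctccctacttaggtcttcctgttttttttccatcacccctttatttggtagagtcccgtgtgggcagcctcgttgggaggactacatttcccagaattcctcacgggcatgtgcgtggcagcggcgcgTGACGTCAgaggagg
Of all windows 1.79% hold these letters on either strand, as do 2 of the 56 receptor windows. At 1428826_at the log2 signal was 9.26 in the GCN5-/- and 8.59 in the GCN5+/- array of line B, against 8.08 and 8.23 in GCN5-/- and 7.96 and 8.05 in GCN5+/- arrays of line A. Both line B arrays lay above all 4 line A arrays. Line B was higher by 0.84 ± 0.14 (SE; limma adjusted p = 0.00383) there and by 0.77 ± 0.11 (adjusted p = 0.00238) at 1428825_at. A further 2 probe sets inside the band, 1421515_at and 1421516_at, were called at 0.66 ± 0.12 and 0.42 ± 0.10 (SE; adjusted p = 0.00595 and 0.0283). Without GCN5-/- B the call was lost at 1428826_at, 1421515_at and 1421516_at (adjusted p = 0.0629, 0.0847 and 0.0681); 1421516_at also lost it without GCN5-/- A2, GCN5+/- A1, GCN5+/- A2 or GCN5+/- B (0.0600 to 0.382). The GCN5-/- array was higher in each pair at 1428825_at and 1428826_at, by 0.33 ± 0.11 and 0.32 ± 0.13 (SE), and neither was called (limma adjusted p = 0.138 and 0.231). The fifth probe set, 1445872_at, averaged far inside the band and was not called.

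**Figure D4:**
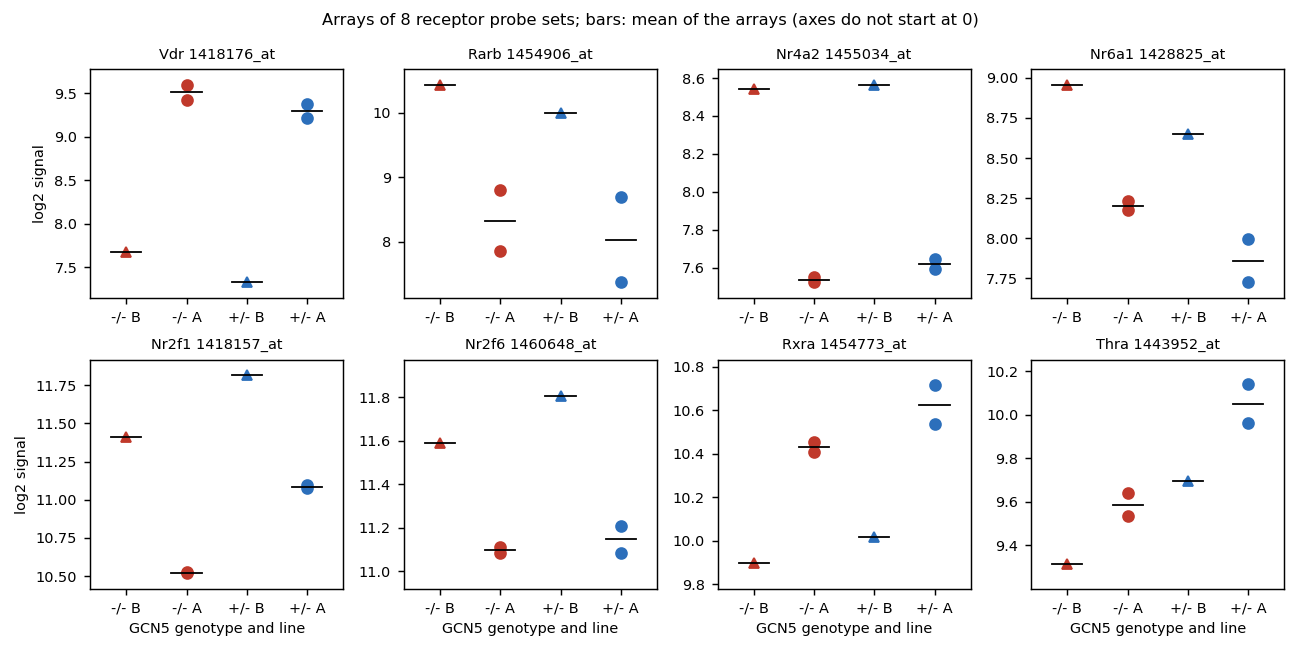
Log2 signal in every array for 8 receptor probe sets, with line B as triangles, line A as circles, GCN5-/- in red left of GCN5+/- in blue, and bars at the means. Vdr is low and Rarb, Nr4a2, Nr6a1, Nr2f1 and Nr2f6 are high in line B in both genotypes, and Thra is lower in every GCN5-/- array.

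The NR4A receptors are immediate-early genes whose RNA rises quickly after many stimuli. Nr4a2 (Nurr1) at 1455034_at had 8.54 in the GCN5-/- and 8.56 in the GCN5+/- array of line B, against 7.55 and 7.52 in GCN5-/- and 7.59 and 7.65 in GCN5+/- arrays of line A. Line B was higher by 0.98 ± 0.10 (SE; limma adjusted p = 0.000318), and of the lines B alone passed the top of the band. Probe sets 1450750_a_at and 1447863_s_at were also called, at 0.73 ± 0.10 and 0.66 ± 0.11 (SE; adjusted p = 0.00171 and 0.00497, the second 0.0991 without GCN5+/- B), and the other 3 Nr4a2 probe sets, all inside the band, were not. Nr4a1 (Nur77) at 1416505_at had 10.28, 10.43 and 10.37 in GCN5-/- arrays, against 10.08, 10.70 and 10.40 in GCN5+/- arrays. Nr4a3 (Nor1) at 1421080_at had 8.84, 8.78 and 8.77 in GCN5-/- arrays, against 8.88, 8.83 and 8.86 in GCN5+/- arrays. Neither was called, and their line differences were 0.02 ± 0.16 and -0.02 ± 0.10 (SE). Whether Nr4a2 differs between the lines more than its relatives was not tested.

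Esrra, an orphan of the estrogen-related class that drives genes of mitochondrial metabolism, was lower in line B at 1460652_at. Its log2 signal was 8.40 in the GCN5-/- and 8.27 in the GCN5+/- array of line B, against 8.91 and 8.75 in GCN5-/- and 8.68 and 8.82 in GCN5+/- arrays of line A. The lines did not overlap, with a difference of -0.46 ± 0.11 (SE; limma adjusted p = 0.0227), and the call was lost without GCN5-/- A1, GCN5-/- B, GCN5+/- A2 or GCN5+/- B (adjusted p = 0.0516 to 0.200). Esrrb and Esrrg were not above the band.

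Other orphan receptors were above the band with no call. Rora, a receptor of the circadian clock loop, had 9.47, 9.64 and 9.78 at 1424034_at in GCN5-/- arrays, against 9.15, 9.47 and 9.63 in GCN5+/- arrays. Nr2c1 (TR2) at 1418605_at had 9.15, 9.19 and 9.31 in GCN5-/- arrays, against 9.16, 9.32 and 9.18 in GCN5+/- arrays. Nr2c2 (TR4) at 1454851_at had 11.15, 11.46 and 11.25 in GCN5-/- arrays, against 11.53, 11.52 and 11.25 in GCN5+/- arrays. The genotypes overlapped at these 3 probe sets; they did not at Nr2c2 1451569_at, also above the band, with 8.66, 8.51 and 8.59 in GCN5-/- arrays, against 8.98, 8.79 and 8.73 in GCN5+/- arrays, which was not called (limma adjusted p = 0.284). Genotype differences at the first 3 were 0.21 ± 0.11, -0.00 ± 0.10 and -0.14 ± 0.10 (SE). Rora was above the band at 3 of its 9 probe sets, none of them called. Hnf4a, a liver and gut receptor, passed the band at 1427001_s_at alone, with 8.40, 8.09 and 8.23 in GCN5-/- arrays, against 8.24, 8.02 and 8.26 in GCN5+/- arrays. Its other 3 probe sets lay inside the band, so the probe sets disagree on whether the gene is above it.

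The 19 genes not above the band at any of their 37 probe sets were Esr1, Esr2, Esrrb, Esrrg, Hnf4g, Nr0b1, Nr0b2, Nr1h3, Nr1h4, Nr1i2, Nr1i3, Nr2e1, Nr3c2, Nr5a1, Nr5a2, Pgr, Rorb, Rxrg and Thrb. They include the receptors for bile acids (Nr1h4) and xenobiotics (Nr1i2, Nr1i3) and a liver X receptor (Nr1h3). Their means ran between 3.81 at Hnf4g and 7.62 at Esrrb. No genotype difference among them passed 0.31 in size, none was called in that comparison, and the Esr1 probe set was the 1 line call. A signal inside the band does not show that a gene is off.

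For the superfamily as a whole, genotype differences ran between -0.51 and 0.38. The median was -0.00, against 0.00 for all probe sets, and 105 of 106 intervals stayed within a 2-fold change in either direction, with a median half-width of 0.23. Between the lines the range was -2.41 to 2.04 and 3 probe sets (2 of Vdr and 1 of Rarb) reached 2-fold. The median CpG observed-to-expected ratio was 0.61 in 27 promoter windows of 18 genes above the band, against 0.43 in 27 windows of 17 genes not above it and 0.38 over all windows, given as a description. The hexamer AGGTCA, to which many receptors bind, was in 9 of 56 receptor windows (16.1%) and in 16.3% of all windows, and TATAAA in 12.5% and 13.6%.

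Genes that act with the receptors were read from lists of ligand handling, cofactors and targets. A gene can count there at several probe sets. The shares of all probe sets given beside the lists include those inside the band. Of the 19966 probe sets above the band, 8.23% were called for genotype and 24.9% for line. Among 19 probe sets of 14 retinoid handling genes, none was called for genotype (limma; 4 had an unadjusted p under 0.05), against 4.47% of all probe sets. In line B 5 were higher and 2 lower (36.8%, against 14.1% of all). Crabp1, a cytoplasmic carrier of retinoic acid, had 9.59 in the GCN5-/- and 12.17 in the GCN5+/- array of line B, against 6.88 and 6.79 in GCN5-/- and 7.02 and 7.14 in GCN5+/- arrays of line A. Line B was higher by 3.93 ± 0.41 (SE; limma adjusted p = 0.000361), and the GCN5-/- array was lower in each pair, by -0.14, -0.35 and -2.58. Crabp2 was also higher in line B, by 1.25 ± 0.22 (SE; adjusted p = 0.00598). Its GCN5-/- array was higher by 1.32 and 1.22 in pairs A1 and A2, but by 0.10 in pair B. The line difference of Crabp2 was thus larger in GCN5+/- than in GCN5-/- cells, and 1.25 averages over both. Its GCN5+/- signals in line A, 7.67 and 7.78, lay inside the band. Aldh1a1, which makes retinoic acid, and Cyp26b1, which degrades it, were lower in line B, by -2.53 ± 0.18 and -1.45 ± 0.21 (SE; adjusted p = 3.35e-05 and 0.00192). In the GCN5-/- and GCN5+/- arrays of line B, Aldh1a1 had 6.06 and 5.74 and Cyp26b1 7.41 and 7.15. These signals lay inside the band, as did every line A signal of Crabp1. Line B thus had higher Rarb, Crabp1 and Crabp2 signals and lower Aldh1a1 and Cyp26b1 signals than line A.

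**Figure D5:**
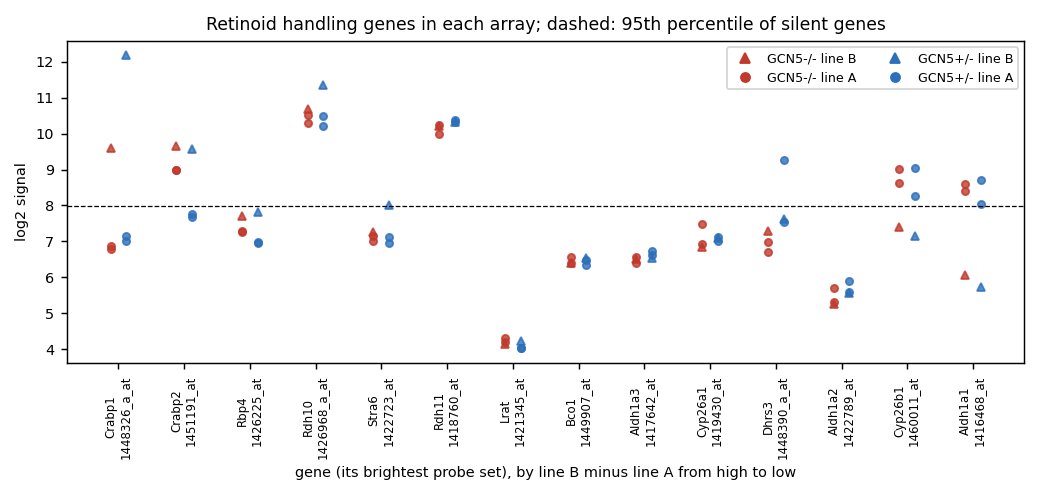
Log2 signal of the brightest probe set of each of the 14 retinoid handling genes in every array (triangles line B, circles line A, GCN5-/- in red left of GCN5+/- in blue), ordered by line B minus line A. Crabp1 at the left is highest in line B, where GCN5-/- has 9.59 and GCN5+/- 12.17, and Aldh1a1 at the right is lowest in line B.

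Of 63 probe sets of 22 coregulator genes, 1 was higher and 1 lower in GCN5-/- cells (3.17%, against 4.47% of all probe sets). The coactivator gene Ncoa7 had 10.20, 10.43 and 9.63 in GCN5-/- arrays, against 9.24, 9.24 and 9.31 in GCN5+/- arrays (0.82 ± 0.16, SE; limma adjusted p = 0.0235). Ppargc1a was lower at 1456395_at (-0.52 ± 0.10, adjusted p = 0.0274) with all signals inside the band. Ncoa7 was called at 1 of 2 probe sets and Ppargc1a at 1 of 5. The median coregulator difference was -0.12, against 0.00 over all probe sets, and 44 of 63 were negative. Before adjustment 27 of the 63 had p under 0.05 by limma, 4 higher and 23 lower. Between the lines 7 were higher and 4 lower (17.5%, against 14.1% of all). Among 22 chaperone probe sets, 3 were higher in GCN5-/- cells (13.6%, against 4.47% of all probe sets), all of Hsp90aa1, which encodes an HSP90 (0.23 ± 0.04 at 1426645_at, SE; adjusted p = 0.0126).

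Of 33 glucocorticoid response probe sets (15 genes), 6 of 3 genes were higher and 2 of 2 genes lower in GCN5-/- cells. This is 24.2%, against 4.47% of all probe sets and 8.23% of those above the band, beside a Nr3c1 difference of 0.09. Nfkbia accounted for 4 of the 6, and 28 of the 33 were above the band. Sgk1, a kinase gene induced by glucocorticoids, had 13.46, 13.57 and 13.34 in GCN5-/- arrays, against 12.70, 12.62 and 12.84 in GCN5+/- arrays (0.74 ± 0.08, SE; limma adjusted p = 0.00165). Cdkn1c, a cell cycle inhibitor, had 9.01, 9.06 and 9.18 in GCN5-/- arrays, against 10.22, 10.56 and 10.73 in GCN5+/- arrays (-1.42 ± 0.11, adjusted p = 0.000395). Nfkbia was higher by 0.47 ± 0.09 and Mt1 lower by -0.39 ± 0.07 (SE; adjusted p = 0.0210 and 0.0147). Mt1 was called at 1 of 2 probe sets. Between the lines, 4 probe sets of this list were higher and 7 lower (33.3%, against 14.1% of all), among them Mt2 at -1.61 ± 0.12 and Ddit4 at 1.07 ± 0.14 (SE; adjusted p = 6.1e-05 and 0.00128).

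In the liver X receptor list, 1 of 20 probe sets was higher in GCN5-/- cells and 6 lower, 2 each of Pltp, Scd1 and Scd2. This is 35.0%, against 4.47% of all probe sets and 8.23% of those above the band, where 16 of the 20 lay. None of the 20 was higher and 7 probe sets of 6 genes were lower in line B by limma. This is 35.0%, against 14.1% of all and 24.9% of those above the band. A positive line difference with an unadjusted p under 0.05 was found at 2. Abcg1, a cholesterol exporter, was higher in GCN5-/- cells by 0.75 ± 0.13, and Pltp, Scd1 and Scd2 were lower, by -0.64 ± 0.10, -0.51 ± 0.08 and -0.39 ± 0.06 (SE; limma adjusted p = 0.0143, 0.0130, 0.0105 and 0.00733). Abcg1 was called at 1 of 2 probe sets, where its GCN5+/- signals of 7.28, 7.16 and 7.78 lay inside the band. Apoe and Lpl were lower in line B by -3.04 ± 0.36 and -2.06 ± 0.14 (SE; adjusted p = 0.000749 and 2.71e-05). In the GCN5-/- and GCN5+/- arrays of line B, Apoe had 6.75 and 6.62 and Lpl 6.57 and 6.49, inside the band. The Apoe duplicates A1 and A2 were apart, with 8.80 and 9.63 in GCN5-/- and 9.68 and 10.80 in GCN5+/- arrays. Of 16 probe sets of vitamin D and thyroid hormone genes 1 was above the band. S100g (calbindin D9k) was the 1 genotype call (6.25%, against 4.47% of all), lower by -0.50 ± 0.11 (SE, limma adjusted p = 0.0396). It was also lower in line B. All 6 S100g signals lay inside the band, between 4.69 (GCN5-/- B) and 5.64 (GCN5+/- A2). The lists of estrogen-related receptor targets (22 probe sets) and of sex steroid genes (19) had no genotype call by limma, with 12 and 3 probe sets at an unadjusted p under 0.05. In the estrogen-related list 4 probe sets were higher and 1 lower in line B (22.7%, against 14.1% of all and 24.9% of those above the band). Its median line difference was -0.06, with 9 positive and 13 negative. Idh3a, called at 3 of 4 probe sets, was higher by 0.44 ± 0.06 and Cox5b, called at 1 of 6, lower by -0.16 ± 0.04 (SE, limma adjusted p = 0.0015 and 0.0274). In the sex steroid list 4 were higher (21.1%), among them Star by 0.66 ± 0.12 (SE, limma adjusted p = 0.00633). All 6 Star signals lay inside the band, between 5.37 (GCN5-/- A2) and 6.32 (GCN5-/- B).

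The label was checked at the targeted gene. Kat2a at 1422972_s_at had 7.97, 7.85 and 7.75 in GCN5-/- arrays, against 9.31, 10.07 and 11.51 in GCN5+/- arrays, and 1422971_at was also lower in every GCN5-/- array; 1426783_at went against this in line A, with 11.60, 11.61 and 10.99 in GCN5-/- arrays A1, A2 and B, against 11.04, 11.23 and 11.40 in GCN5+/- arrays (within line A, limma adjusted p = 0.0262, higher; over both lines, adjusted p = 0.670). Where it lies relative to the deleted part was not analysed here. The 3 Kat2b probe sets averaged 4.92 to 6.68. All 11 fibroblast marker genes were above the band in at least 1 line. List means were 11.60 to 11.70 in GCN5-/- and 11.97 to 12.02 in GCN5+/- arrays. Thy1 and Lum passed the band in line B only, where Lum had 7.48 in the GCN5-/- array and 10.59 in the GCN5+/- array. In line A, Thy1 had 6.21 and 6.02 in GCN5-/- and 6.19 and 6.05 in GCN5+/- arrays. Lum there had 5.51 and 5.80 in GCN5-/- and 6.43 and 6.45 in GCN5+/- arrays. Of the 22 probe sets, 6 of 4 genes were called lower in GCN5-/- cells. Thy1 was higher and Pdgfra lower in line B by 2.95 ± 0.19 and -1.91 ± 0.14 (SE, limma adjusted p = 2.14e-05 and 3.91e-05). Markers above the band from other cell types were 3 of 9 macrophage, 2 of 7 endothelial, 1 of 7 epithelial, 3 of 8 neural, 0 of 6 muscle and 1 of 4 adipocyte genes. Of these Cd53 was higher in GCN5-/- cells by 0.85 ± 0.09 (SE; adjusted p = 0.00169), Flt1 was lower, and Flt1 was lower in line B. For genotype, Cd53 was called at 1 of 2 probe sets and Flt1 at 2 of 4. Of the 13 macrophage probe sets 1 was called higher in line B (Cd68, 0.91 ± 0.11) and 4 lower (Csf1r at 3 and Cd53 at 1), with 6 differences positive and 7 negative and a median of -0.01. The 13 macrophage marker probe sets averaged 6.88 to 7.21 in GCN5-/- and 6.80 to 6.93 in GCN5+/- arrays. Their part in the receptor results was not tested. Array medians ran between 7.404 and 7.453. The standard deviation of the log2 difference between 2 arrays was 0.211 for the GCN5-/- and 0.219 for the GCN5+/- duplicates, and 0.416 to 0.512 between arrays of different lines.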

How the data were processed

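Log2 signals of 45101 probe sets on 6 arrays were used as deposited by the authors (log2 judged by their range). MAS5 (6 samples) and Partek (1) appear in the submitters' processing notes. How arrays were normalized is not given in the sources used here; scaling between arrays removes a change shared by most genes. Leaving out 64 controls left 45037 probe sets, of which 34945 had 1 symbol, 932 several (not used for naming) and 9160 are unnamed here.

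Tests used limma 3.58.1 in R 4.3.3 (lmFit, eBayes with trend) on genotype plus line, with 3 residual degrees of freedom and Benjamini-Hochberg adjustment over all 45037 probe sets, called under 0.05. The product term came from a second fit with 2. The code was tested on simulated data. Array number, not depth, limits precision. The members, lists and tests were chosen with earlier results of these data known. Each receptor above the band or called was described by array, and up to 4 called genes per list were named by smallest p. Promoters and symbols came from RefSeq (GRCm38.p6); 37 of 41 receptors had a window.

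Per the labels, the pairs are arrays of the same cell line. Deviations from group means correlated at 0.637 (A1), 0.657 (A2) and 0.804 (B), and at 0.430 and 0.348 when A1 and A2 were crossed.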

Additional observations from a re-analysis of the deposited data

Results flagged for a closer look

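The genotype difference of Crabp1, the retinoic acid carrier, differed between the lines. Line B minus line A of the GCN5-/- minus GCN5+/- difference was -2.34 on the log2 scale at 1448326_a_at (limma product term, adjusted p = 0.0196), with -2.58 in pair B and -0.14 and -0.35 in pairs A1 and A2. Line B has 1 RNA per genotype, so this rests on the spread of the line A duplicates.

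Nr2f2 had 1 array apart from the other 3 of line A at 2 probe sets. The GCN5-/- A1 array had 9.68 at 1416158_at, against 9.88 in GCN5-/- A2 and 9.88 and 9.90 in the GCN5+/- arrays of line A. It had 6.38 at 1444229_at, against 6.61 in GCN5-/- A2 and 6.62 and 6.64 in the GCN5+/- arrays. The gaps passed the critical value of Dixon's test for 4 samples at these 2 of 41 receptor probe sets examined, where chance passes about 1 in 20. The 4 arrays hold both genotypes, and the cause was not tested.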

How the results depend on the processing

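The 2 genotype calls of the receptors remained 2 with quantile normalization, without the eBayes trend, under the level filter and with the replicate block (A1, A2 and B as blocks). They fell to 0 with the line A duplicates averaged, without a line term and with line as a random block, and to 1 (Nr2f1) with the brightest probe set per gene. Leaving out single arrays left 0 to 1, and 0 without GCN5-/- A2. Over all probe sets the genotype count of 2012 was 410 with averaged duplicates, 3 without a line term, 201 when line was a random block, 1086 for the brightest probe sets and 549 without GCN5-/- A2, against 2291 with the replicate block. The 18 line calls were 11 without a genotype term, 11 within GCN5-/- arrays, 10 within GCN5+/- arrays and 8 with the brightest probe sets, 10 to 14 with single arrays left out (10 without GCN5-/- B and 11 without GCN5+/- B), and 18 with the replicate block, which changed no call of the receptors. Over all probe sets the 6361 line calls were 2956 without a genotype term, 3047 within GCN5-/- and 4337 within GCN5+/- arrays, 3270 with the brightest probe sets, 4326 without GCN5-/- B and 3016 without GCN5+/- B. Without a genotype term the line call of Nr2f1 was lost (adjusted p = 0.0685). Both Vdr probe sets, Rarb, Nr2f6 1460648_at, Nr4a2 1450750_a_at and 1455034_at, and Nr6a1 1428825_at stayed called under every alternative run for the line difference. The product term gave 0 receptor calls under each alternative run. The 20 genes above the band were 31 with the 75th percentile of the silent genes and 18 when both lines had to pass (Vdr passed in line A and Nr4a2 in line B). No direction reversed; causes were not tested beyond what each setting removes. Only 2 lines were measured, and signals inside the band limit what weakly expressed receptors can show.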
